A study of Mus musculus with 20 samples.

Results

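Type I interferon signalling was followed through 9 of its genes, Ifnb1, Ifnar1, Ifnar2, Jak1, Tyk2, Stat2, Irf9, Irf1 and Socs1, in mouse embryonic fibroblasts during 24 h with the compound AICAR. The genes were taken by name, with earlier results of these data known. Every probe set that the array annotation pairs with 1 of these symbols alone was used. That gave 14 probe sets of 28898 with a single symbol, and 9 genes of 17097 so named. The cells were SV40-immortalized murine embryonic fibroblasts with the genotype Ampkα1/α2 double knockout, in which the genes for both catalytic subunits of AMPK, a kinase that senses the cell's energy state, are deleted. All groups share this genotype and immortalization, so no wild-type cells enter any comparison. The control group was taken at 0 h without AICAR (3 arrays), and the treated groups after 1, 2, 4, 12 and 24 h (3 arrays each) and 8 h (2 arrays) in 1 mM AICAR, an adenosine analog that cells phosphorylate to the AMP mimic ZMP. The series asks how expression at each time in AICAR differs from the start. With the controls taken at 0 h, hours in AICAR and hours in culture cannot be told apart. Nothing states that replicate arrays came from separate cultures, so the p-values rest on array-to-array spread that may be only technical.

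Interferon beta, encoded by Ifnb1, is a secreted cytokine that fibroblasts make when they sense foreign or misplaced nucleic acid. It binds a receptor of 2 chains, IFNAR1 and IFNAR2, whose associated kinases TYK2 and JAK1 phosphorylate STAT proteins. STAT2 is joined by IRF9 in the ISGF3 complex, which enters the nucleus and binds interferon-stimulated response elements in antiviral genes, while SOCS1 and USP18 restrain the receptor and its kinases.

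After 24 h in AICAR 5 of these 9 genes were higher than in the controls. In signal, Irf9 rose 4.96-fold, Ifnar1 1.54-fold, Tyk2 1.52-fold and Irf1 1.44-fold. The control mean of Irf9 lay 0.43 above the nonspecific level in log2 signal, so its fold need not be that of RNA. Stat2, whose control signal lay near the nonspecific level, rose by 1.10 in log2 signal. Ifnb1, Ifnar2, Jak1 and Socs1 did not pass the test, each read from its probe set of highest mean. For Ifnar2 and for Jak1 another probe set, tested on its own, was called higher, so their result depends on the probe set. The 5 rises among 9 genes stand against 25.8% of the 12944 tested genes called higher at 24 h (limma, Benjamini-Hochberg adjusted p below 0.05), and 0 members were called lower (0 at an unadjusted p below 0.05), against 14.6% of tested genes. The median difference over the 9 genes was 0.52 on the log2 scale, and that over all tested genes was 0.01. Since the members were chosen with earlier results of these data known, neither the counts nor the median are independent evidence. Before 24 h few members moved. Irf1 alone was called lower, 1 of 9 members at 1 h and 1 of 9 at 2 h, against 0.471% and 0.997% of tested genes. At 4 h and at 8 h no member passed the test, with 0 and 1 at an unadjusted p below 0.05, against 12.1% and 10.3% of tested genes called in either direction by limma. At 12 h Ifnar1 alone was called higher, 1 of 9 members against 14.8% of tested genes.

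**Figure D1:**
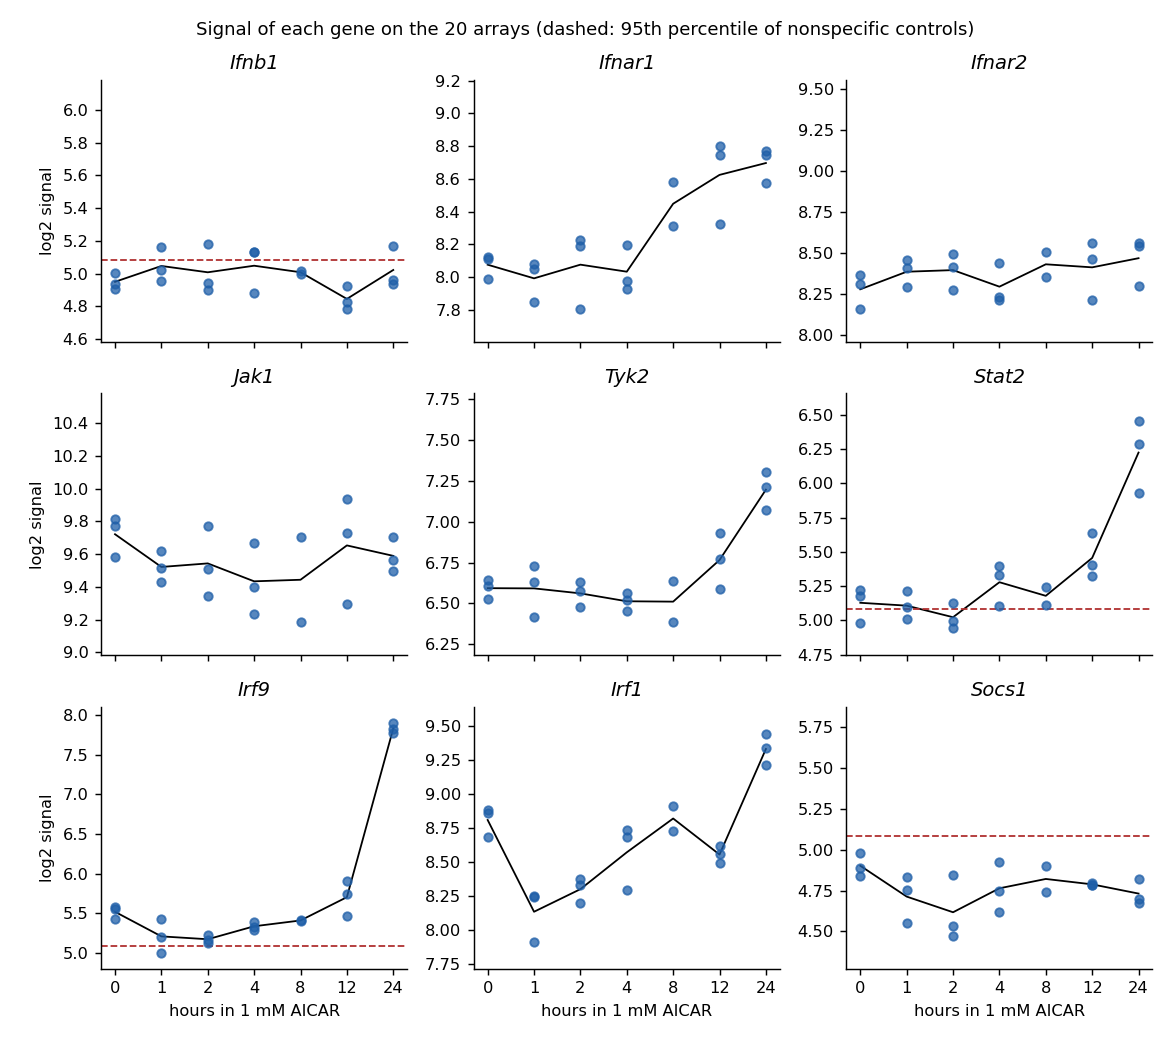
Log2 signal of the probe set that stands for each of the 9 genes (y axis, a scale of its own in each panel) on the 20 arrays against hours in 1 mM AICAR (x axis, evenly spaced). Points are arrays, the line joins group means, and the dashed line, drawn where it lies in range, is the 95th percentile of the nonspecific control probe sets (5.08). Irf9, Stat2, Tyk2 and Irf1 have their highest 3 arrays at 24 h, while 5 of 20 arrays of Ifnb1 and 0 of 20 of Socs1 lie above the dashed line.

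Signal is the deposited log2 value, and array medians ran from 5.16 to 5.32. The array carries 23 nonspecific control probe sets that match no mouse transcript, and their 95th percentile, 5.08 on the log2 scale, was taken as the level that a signal must pass to count as above background. By array it was 5.07 to 5.12 in the controls and 4.71 to 4.95 at 24 h. Signal from 3' actin probes exceeded that from 5' probes by 0.38 to 0.46 in the controls and by 0.50 to 0.56 at 24 h, a measure of RNA quality, and its part in the results was not tested. Fibroblast markers were present, with 7 of 10 above 5.08 in the controls and at 24 h and a summed log2 signal of 65.8 to 66.7 in the controls and 65.9 to 67.3 at 24 h, although Col1a2, Fap and Thy1 were below it. Of 8 fibroblast markers tested at 24 h, Postn rose by 0.84 (adjusted p = 0.00024), and Pdgfrb and Thy1 were lower, with differences of −0.25 and −0.22 (adjusted p = 0.0461 and 0.0329). Dcn was lower at 4 h (−0.30, adjusted p = 0.0386) and 8 h (−0.37, adjusted p = 0.0248) and did not pass at 24 h (adjusted p = 0.0668). Of 8 macrophage markers, 3 were above it in the controls and 4 at 24 h, and their summed log2 signal was 38.9 to 39.3 in the controls and 39.5 to 40.5 at 24 h. Cd68, the lysosomal one among them, rose by 1.08 ± 0.12 (SE, adjusted p = 1.26e-06). Csf1r, Cd14 and Fcgr1 lay above 5.08 in the controls, at 5.77, 6.38 and 5.22, and did not pass the test at 24 h. Cd14 was higher at 8 h (0.40, adjusted p = 0.0244) and Csf1r lower at 12 h (−0.25, adjusted p = 0.0498). Adgre1, Ptprc, Lyz2 and Itgam lay below 5.08, at 4.83, 4.05, 3.86 and 4.24 in the controls. Plasmacytoid dendritic cell markers, cells known for interferon secretion, summed to 30.1 to 30.5 in the controls and 29.2 to 30.1 at 24 h, with 3 of 6 above 5.08 in both groups. Klk1 among them was lower at 12 h (−0.30, adjusted p = 0.0309) and 24 h (−0.307, adjusted p = 0.0159). Of 5 epithelial markers 3 lay above 5.08 in both groups. Krt19, at 9.82 in the controls, was lower at 4 h (−0.28, adjusted p = 0.0119) and 24 h (−0.285, adjusted p = 0.00254). At 12 h Krt19 was higher (0.32, adjusted p = 0.00214). The endothelial marker Kdr was lower at 24 h (−0.27, adjusted p = 0.0466). In bulk RNA fewer cells of a type and less RNA per cell cannot be told apart. Prkaa1 and Prkaa2, the deleted genes, gave signals of 7.92 to 8.36 and of 5.42 to 6.98. With no wild-type array and with the deleted exons not named, these check nothing.

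The promoters of 3 members are shown because their sequence can be set beside their course, 1 that rose late (Stat2), 1 that fell early and rose late (Irf1) and 1 that stayed at the nonspecific level (Socs1). They are RefSeq windows of 250 bases that end at the base before the annotated start of transcription, on GRCm38.p6, given 5′ to 3′ on the strand of the gene. Capitals mark a match to 1 of 2 motifs searched on both strands, a pair of GAAA with any 2 bases between them, the core of the interferon-stimulated response element to which ISGF3 and the IRF proteins bind, or TTCNNNGAA, the interferon-gamma-activated site to which STAT dimers bind. The windows of Stat2 (chr10:128270248-128270497, + strand), of the first of 2 annotated starts of Irf1 (chr11:53769764-53770013, + strand) and of Socs1 (chr16:10785537-10785786, − strand) read as follows.
Stat2: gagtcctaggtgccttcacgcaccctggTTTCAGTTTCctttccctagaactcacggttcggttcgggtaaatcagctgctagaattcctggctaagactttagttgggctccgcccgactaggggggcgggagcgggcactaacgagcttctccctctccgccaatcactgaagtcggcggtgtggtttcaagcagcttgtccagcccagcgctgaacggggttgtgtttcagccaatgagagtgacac
Irf1: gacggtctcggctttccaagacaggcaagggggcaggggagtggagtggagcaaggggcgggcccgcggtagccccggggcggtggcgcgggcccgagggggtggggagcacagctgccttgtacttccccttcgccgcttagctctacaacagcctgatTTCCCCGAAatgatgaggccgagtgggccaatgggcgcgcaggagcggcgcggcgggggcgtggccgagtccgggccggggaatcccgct
Socs1: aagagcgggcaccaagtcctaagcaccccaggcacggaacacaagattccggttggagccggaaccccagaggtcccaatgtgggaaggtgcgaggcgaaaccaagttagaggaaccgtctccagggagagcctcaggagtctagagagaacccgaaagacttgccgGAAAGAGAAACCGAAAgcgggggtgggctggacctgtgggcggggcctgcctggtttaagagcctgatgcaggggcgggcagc
The Stat2 window holds TTTCAGTTTC, the core read on the opposite strand, 222 to 213 bases upstream of the start. The Irf1 window holds TTCCCCGAA, an activated site, 90 to 82 bases upstream. The Socs1 window holds a pair of overlapping cores, GAAAGAGAAA at 83 to 74 bases upstream and GAAACCGAAA at 77 to 68.

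Of the 9 members, all with a window, 2 (Stat2 and Socs1) held the response element core in a window and 2 (Irf1 and Ifnar2) the activated site. For comparison, of the 27025 genes with a window 3.46% held the core and 8.13% the activated site. Ifnar2 has TTCCTGGAA at 214 to 206 bases upstream. The windows of Ifnb1, Ifnar1, Jak1, Tyk2 and Irf9 held neither set of letters. A match is a description of letters, and no match says only that these letters are not in the window. Irf9, the member with the largest rise, was thus without a match, and Socs1, with 2, did not pass the test at any time.

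The ligand came first in the order of the pathway. Ifnb1 gave log2 signals of 4.94, 5.005 and 4.91 on the control arrays and of 4.96, 4.94 and 5.17 at 24 h. Its 20 values spanned 0.39 in all, from 4.78 to 5.18, and 5 of the 20 arrays lay above 5.08. Against the 95th percentile of nonspecific controls of each array itself, 12 of the 20 lay above, among them 0 of 3 controls, all 3 arrays at 4 h, both arrays at 8 h and 2 of the 3 at 24 h. Each group overlapped the next in order of mean, from 4.84 at 12 h to 5.05 at 4 h. Groups farther apart in that order could be separate, and the 3 arrays at 24 h lay above the 3 at 12 h. The difference at 24 h was 0.07 with a 95% interval of −0.12 to 0.26 (adjusted p = 0.602), and at 12 h it was −0.10 with an interval of −0.30 to 0.09 (adjusted p = 0.493). Between 12 h and 24 h it was 0.18 (adjusted p = 0.206). Of the alternatives, 2 gave a call, the interquartile range covariate between 12 h and 24 h (0.20, adjusted p = 0.0345) and array weights at 4 h (0.14, adjusted p = 0.00602). Near the array's nonspecific level a rise from a low amount of RNA might not be measurable, so this probe set bounds the change in signal and not that in RNA or in secreted protein.

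The other interferon genes gave no call either. The annotation names 10 of them singly, and 5, all of the alpha family, passed the filter on low signal. Of these 0 passed the test at any time, with 0 at an unadjusted p below 0.05 except 1 lower at 12 h. That was Ifna4, whose difference was −0.30 ± 0.12 (SE, adjusted p = 0.0787) at 12 h and −0.18 ± 0.12 (SE, adjusted p = 0.263) at 24 h. Under quantile normalization 1 of the 5 passed as lower at 12 h, and under array weights 1 as higher at 4 h and 1 as lower at 24 h. The median of the 5 at 24 h was −0.06. In the controls Ifna1 and Ifna9 lay below 5.08, at 4.81 and 4.84. Ifna7, Ifna4 and Ifna2 lay above it, at 5.18, 5.33 and 5.74. As for Ifnb1, a rise from a low amount of RNA might not be measurable near that level.

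Of 9 tested genes that induce Ifnb1, 7 rose at 24 h and 0 fell by limma (0 lower at an unadjusted p below 0.05), with a median difference of 0.33. Of all tested genes 25.8% were called higher and 14.6% lower at 24 h, and each count of a related list at 24 h is to be read against these shares. Rela, the NF-κB subunit that binds the Ifnb1 enhancer, rose by 0.88 ± 0.096 (SE, adjusted p = 9.29e-07). Sting1, the adaptor for cytosolic DNA sensing, rose by 0.50 ± 0.11 (SE, adjusted p = 0.000962), and the kinases of IRF3 rose as well, Tbk1 by 0.33 ± 0.075 (SE, adjusted p = 0.00162) and Ikbke by 0.41 ± 0.099 (SE, adjusted p = 0.00247). At 1 h and at 2 h 1 of the 9 was lower, against 0.471% and 0.997% of tested genes. It was Jun, a subunit of the AP-1 factor of the same enhancer, with a difference of −0.79 at 1 h (adjusted p = 0.00144). Its 2 h call (−0.42, adjusted p = 0.0442) was lost in 9 of 18 alternatives. Higher were 1 of the 9 at 4 h (Tbk1), 3 at 8 h (Jun, Mavs and Rela) and 2 at 12 h (Mavs and Rela). The shares of tested genes called higher were 5.18%, 7.49% and 14.8%. No 8 h call of the list remained without control replicate 3.

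Both receptor chains are encoded on chromosome 16. Ifnar1, the chain that carries TYK2, gave 8.13, 8.11 and 7.99 on the control arrays. Its signal was 8.58 and 8.31 at 8 h, 8.75, 8.80 and 8.33 at 12 h, and 8.75, 8.77 and 8.58 at 24 h. All 8 arrays from 8 h on lay above the 12 earlier arrays, whose highest value was 8.23.

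The rise of Ifnar1 was 0.55 ± 0.13 (SE) at 12 h (adjusted p = 0.00463) and 0.62 ± 0.13 at 24 h (adjusted p = 0.000767). At 8 h, with 2 arrays, the difference of 0.37 had an interval of 0.07 to 0.68 and did not pass the test (adjusted p = 0.119), but it passed under quantile normalization, under array weights and with the interquartile range of each array as a covariate. From 12 h to 24 h the gene differed by 0.07 with an interval of −0.20 to 0.35 (adjusted p = 0.819), and of the 5 genes higher at 24 h it was the one that did not pass the test between these times. Its signal correlated with the interquartile range of the array (r = 0.71 over the 20 arrays, which share their time groups). With that range as a covariate the 12 h difference was 0.49 (adjusted p = 2.91e-05).

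Ifnar2, the chain that carries JAK1, has 3 probe sets. The brightest, 1451462_PM_a_at, gave 8.36, 8.31 and 8.16 on the control arrays and 8.56, 8.55 and 8.30 at 24 h, and its groups overlapped throughout. The difference at 24 h was 0.19 with an interval of −0.02 to 0.40 (adjusted p = 0.155). Its signal followed the interquartile range of the arrays (r = 0.88 over 20 arrays). It passed at 24 h under array weights, with the mean of all probe sets and with replicate number as a block, so the call depends on the setting.

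A second Ifnar2 probe set, 1440169_PM_x_at, took another course. It read 6.47, 6.55 and 6.06 on the control arrays, 5.89, 5.82 and 5.60 at 1 h, and 6.83, 6.96 and 6.77 at 24 h. The 24 h arrays lay above the controls, and the difference of 0.49 ± 0.16 (SE) passed the test over 20460 probe sets (adjusted p = 0.0182, 37.5% of them called in either direction). The suffix x marks probes that can also bind other transcripts. The third probe set, 1427691_PM_a_at, differed by 0.12 at 24 h (adjusted p = 0.508), so for Ifnar2 the 3 probe sets did not give 1 answer.

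Of 10 other tested receptor chains of the same cytokine receptor class, or of the interleukin 6 class, 6 rose and 1 fell at 24 h, with a median difference of 0.47. The largest rise was that of Il10rb, the chain shared by the interleukin 10 and lambda interferon receptors, from 8.19 to 9.51 (1.32 ± 0.093 SE, adjusted p = 5.4e-09), and it was already 0.76 above the controls at 12 h (adjusted p = 1.92e-05). With all its probe sets averaged the 24 h rise was 0.70. Ifngr1, the ligand-binding chain of the interferon gamma receptor, rose by 0.91 ± 0.11 (SE, adjusted p = 2.91e-06). Osmr, the oncostatin M receptor, rose by 0.89 ± 0.12 (SE, adjusted p = 6.88e-06), or by 0.31 with all probe sets averaged. F3, tissue factor, which has the fold of this receptor class but starts coagulation, fell, with a difference of −0.64 ± 0.096 (SE, adjusted p = 3.17e-05).

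Of the 2 kinases, Tyk2, which docks on IFNAR1, rose at 24 h. It gave 6.65, 6.53 and 6.61 on the control arrays, 6.59, 6.93 and 6.77 at 12 h, and 7.30, 7.21 and 7.07 at 24 h. The 3 arrays at 24 h lay above the other 17, whose highest was 6.93. The rise was 0.60 ± 0.098 (SE) over the controls (adjusted p = 6.87e-05) and 0.43 ± 0.098 over 12 h (adjusted p = 0.00429), while the 12 h difference of 0.17 did not pass (adjusted p = 0.243).

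Jak1 has 3 probe sets that disagreed. The brightest, 1433805_PM_at, gave 9.58, 9.77 and 9.82 on the control arrays and 9.70, 9.57 and 9.50 at 24 h, a difference of −0.13 with an interval of −0.47 to 0.20 (adjusted p = 0.584). A second, 1433803_PM_at, gave 8.24, 8.20 and 8.02 on the control arrays and 8.63, 8.65 and 8.67 at 24 h. The latter 3 arrays were the highest of the 20 for that probe set, and its rise of 0.50 ± 0.10 (SE) passed the test over all probe sets (adjusted p = 0.00071), as did its rise of 0.33 over 12 h (adjusted p = 0.0292).

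The third Jak1 probe set, 1433804_PM_at, swung within groups. It lay between 7.02 and 8.30 on 7 arrays, among them 2 of the 3 controls and 1 or 2 arrays at 2, 4, 8 and 12 h, and between 4.85 and 5.90 on the other 13. Its spread within groups (SD 1.31 on the log2 scale) ranked 7 of 28898 single-symbol probe sets. It correlated with 1433805_PM_at (r = 0.81 over 20 arrays) and not positively with 1433803_PM_at (r = −0.40), and 1433805_PM_at correlated with the interquartile range of the arrays at r = 0.67 and 1433803_PM_at at 0.08. Whether the RNA of Jak1 rose at 24 h therefore depends on the probe set read.

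**Figure D2:**
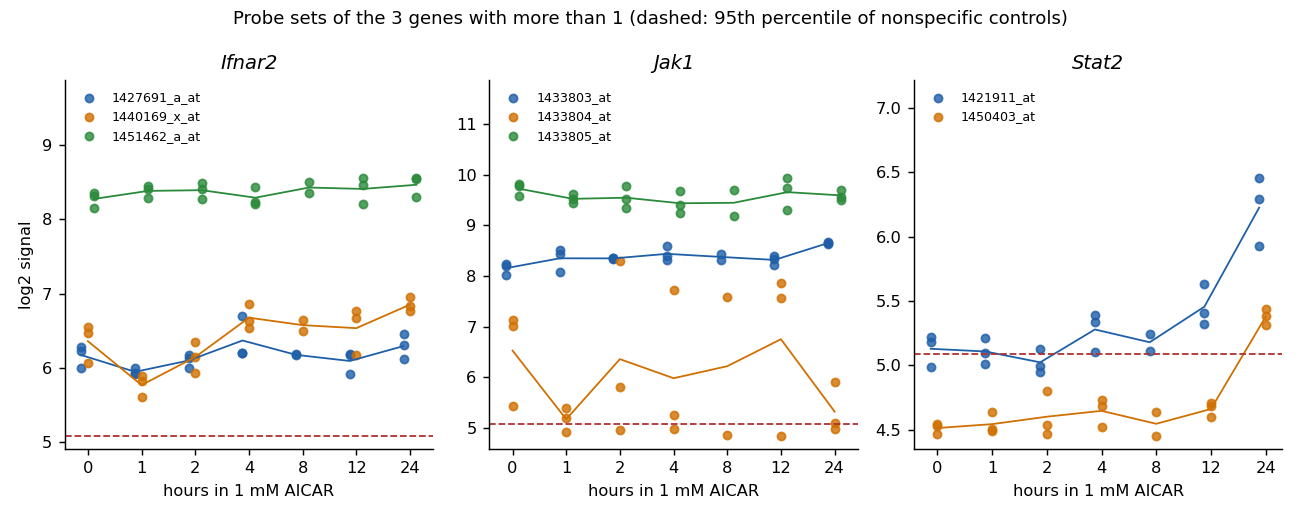
Log2 signal (y axis, its own scale in each panel) of every probe set of the 3 genes with more than 1, against hours in 1 mM AICAR (x axis, evenly spaced). Points are arrays, lines join group means, and the dashed line marks the 95th percentile of nonspecific controls (5.08). Both Stat2 probe sets rise at 24 h, Jak1 1433804 swings within groups between 4.85 and 8.30, and of Ifnar2 the probe set 1440169_x moves the most.

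Of the 6 other JAK and STAT genes tested, 3 rose and 0 fell at 24 h by limma (0 lower at an unadjusted p below 0.05), with a median of 0.28. They were Stat5a (0.63 ± 0.087 SE, adjusted p = 1.28e-05), Stat5b (0.62 ± 0.093 SE, adjusted p = 2.8e-05) and Stat3 (0.41 ± 0.081 SE, adjusted p = 0.000424), factors that act mainly below cytokine and growth factor receptors. With all probe sets averaged these rises were 0.36, 0.35 and 0.18.

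Stat2 and Irf9, which encode subunits of ISGF3, had the largest rises of the 9. Irf9, the DNA-binding subunit, gave 5.58, 5.55 and 5.43 on the control arrays. At 12 h it read 5.90, 5.74 and 5.46, and at 24 h 7.77, 7.90 and 7.82. No array of another group was above 5.90.

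Irf9 rose by 2.31 ± 0.10 (SE) at 24 h (95% interval 2.09 to 2.53, adjusted p = 1.35e-11), and 2.13 of that came after 12 h (adjusted p = 7.51e-11), when the difference from the controls had been 0.18 (adjusted p = 0.234). The 12 h difference passed with array weights (0.24, adjusted p = 0.0226) and without replicate 3 of the 12 h group (0.30, adjusted p = 0.0336). At 1 h Irf9 differed by −0.31 (adjusted p = 0.389), which passed with array weights (adjusted p = 0.0227). At 2 h its arrays read 5.23, 5.13 and 5.17, all below the controls, as were those at 4 h and 8 h. The differences of −0.35, −0.18 and −0.11 did not pass the test (adjusted p = 0.127, 0.312 and 0.7). The 2 h difference passed with array weights and with the interquartile range as a covariate.

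Stat2, the subunit that carries the transactivation domain, gave 4.98, 5.18 and 5.22 on the control arrays from its brighter probe set, 1421911_PM_at. It read 5.64, 5.32 and 5.41 at 12 h and 6.29, 6.46 and 5.93 at 24 h. The 12 h arrays lay above the controls and the 24 h arrays above all others.

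The Stat2 rise at 24 h was 1.10 ± 0.12 (SE, adjusted p = 9.25e-07), of which 0.77 followed 12 h (adjusted p = 0.000183). At 12 h the difference of 0.33 did not pass the test (adjusted p = 0.0572), and its adjusted p was 0.0219 under quantile normalization and 0.0455 with replicate number as a block. The second probe set, 1450403_PM_at, lay below 5.08 on all 17 arrays before 24 h and at 5.31 to 5.43 on the 3 arrays at 24 h, a rise of 0.87 ± 0.086 (SE, adjusted p = 7.24e-07). With control signals at the nonspecific level, these are differences in signal and need not equal ratios of RNA.

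**Figure D3:**
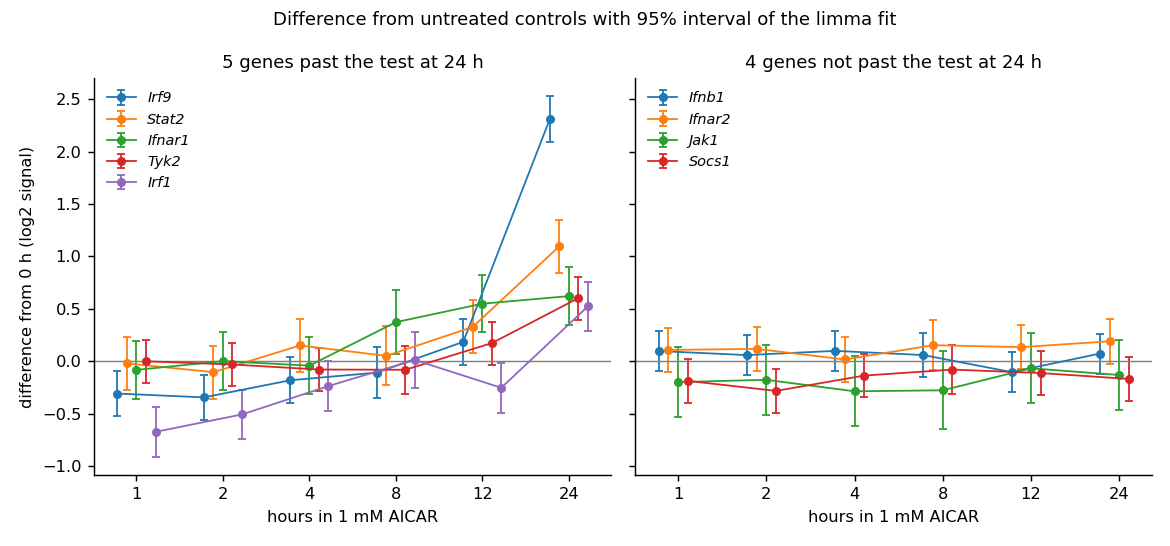
Difference from the 0 h controls in log2 signal (y axis) for each gene at each time in 1 mM AICAR (x axis, hours, evenly spaced), with bars for the 95% interval of the limma fit. At the left are the 5 genes past the test at 24 h, led by Irf9 at 2.31, and at the right the 4 genes not past it, whose intervals at 24 h all hold 0.

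Irf1, a transcription factor that interferon gamma induces strongly and type I interferon less so, was the one member called in both directions. It gave 8.86, 8.88 and 8.68 on the control arrays, 8.25, 8.24 and 7.91 at 1 h, and 8.33, 8.19 and 8.37 at 2 h. The 6 early arrays lay below all 3 controls. At 24 h the arrays read 9.44, 9.34 and 9.22, above the other 17.

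Irf1 was lower than the controls at 1 h, with a difference of −0.68 ± 0.11 (SE, adjusted p = 0.00603), and the difference at 2 h was −0.51 ± 0.11 (SE, adjusted p = 0.0271). Both falls rest on few arrays. The call at 1 h was lost without control replicate 2 (−0.64, adjusted p = 0.0529) or without replicate 3 of the 1 h group (−0.57, adjusted p = 0.0655). The call at 2 h was lost without control replicate 1 or 2 and without any 1 of the 3 arrays at 2 h, with an adjusted p of up to 0.146.

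At 4 h Irf1 differed by −0.24 (adjusted p = 0.206), and at 8 h, near the control level, by 0.01 (adjusted p = 0.984). At 12 h Irf1 differed by −0.25 (adjusted p = 0.119). At 24 h it was 0.52 ± 0.11 (SE) above the controls (adjusted p = 0.00103) and 0.78 ± 0.11 above 12 h (adjusted p = 9.48e-05).

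Among 9 other tested genes of the IRF family and their binding partners, 2 rose and 2 fell at 24 h, with a median of −0.01, which is near the shares of all tested genes called at that time. Irf5 rose by 1.19 ± 0.12 (SE, adjusted p = 2.98e-07). Irf7, which amplifies interferon production and is itself a target of ISGF3, rose by 0.64 ± 0.099 (SE, adjusted p = 3.77e-05) from 5.04, near the nonspecific level, and at 12 h it differed by −0.06 (adjusted p = 0.764). Irf2bp2 and Irf2bp1, corepressors that bind IRF2, fell by 0.38 and 0.29 on the log2 scale (adjusted p = 0.00829 and 0.011). Irf2bp2 reversed to a rise of 0.41 with all its probe sets averaged, and neither fall passed the test without replicate 3 of the 24 h group, nor did that of Irf2bp1 without control replicate 1 or replicate 2 of the 24 h group. Irf3, which the kinases TBK1 and IKKε activate, passed at 12 h (0.42, adjusted p = 0.000795) and not at 24 h (0.17, adjusted p = 0.0964).

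Socs1, the inhibitor of JAK1 and TYK2, lay below 5.08 on all 20 arrays. It gave 4.84, 4.89 and 4.98 on the control arrays and 4.70, 4.82 and 4.68 at 24 h. The 24 h arrays lay below the controls, and the difference of −0.17 had an interval of −0.38 to 0.04 (adjusted p = 0.199). Its largest difference, −0.28 at 2 h, did not pass (adjusted p = 0.218), though it did with array weights, with the interquartile range as a covariate and without the 2 arrays with the highest medians. It was tested because its means at 0 h (4.90) and at 8 h (4.82) were above the filter of 4.81. Against the nonspecific level of each array itself, 2 of the 20 arrays lay above, both at 12 h.

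The other negative regulators did not move as 1 group. Of 17 tested, 8 rose and 3 fell at 24 h, with a median of 0.18. Usp18, the protease that removes ISG15 and also blocks IFNAR2, had a signal of 4.34 in the controls and 7.89 at 24 h, a difference of 3.54 ± 0.15 (SE, adjusted p = 5.02e-12). Its mean lay below the filter and the nonspecific level in every group before 24 h, so it was tested only through the group where it is high, and the difference is one of signal and not a ratio of RNA. Socs7 rose by 0.92 ± 0.095 (SE, adjusted p = 5.05e-07), or by 0.51 with all probe sets averaged. Socs5 fell by 0.80 (SE 0.12, adjusted p = 2.45e-05), and Socs2, best known as a brake on growth hormone signalling, fell by 1.33 (SE 0.24, adjusted p = 0.000229), or by 0.66 with all probe sets averaged, both on the log2 scale.

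Set against 12 h, 4 of the 9 members rose at 24 h, compared with 12.6% of tested genes, and these were Irf9, Irf1, Stat2 and Tyk2. The median over all 9 members was 0.18, and that over all tested genes 0.02. This comparison shares its 24 h arrays with the one against the controls, so it is not a second sample. Over all 7 times 5 of 9 members passed the F test, as did 48.4% of tested genes, so passing it does not set these genes apart.

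Genes downstream of the pathway rose at 24 h. The lists were drawn up with the late rise of interferon-stimulated genes in these data already known, so their direction is not independent evidence. Of 12 tested targets of ISGF3, 12 rose at 24 h with a median of 2.53. At 12 h 6 were higher, with a median of 0.34, against 14.8% of tested genes. At 8 h 3 were higher, with a median of 0.04, against 7.49%, and 0 without replicate 1 of the 8 h group. The filter had a part in the count at 24 h, since Oasl2 passed it only through its 24 h group and Mx1, at 3.83 at 24 h, was not tested. Ifit1, whose product binds foreign RNA ends, went from 4.73 to 9.72 (4.99 ± 0.13 SE, adjusted p = 1.58e-14). Rtp4 went from 4.87 to 9.68 (4.81 ± 0.098 SE, adjusted p = 2.52e-16), or rose by 2.55 with all probe sets averaged, and both control means lay below 5.08, so these are differences in signal that can understate the change in RNA. The RNA sensor gene Ifih1 rose by 3.35 ± 0.11 (SE, adjusted p = 1.37e-13). The smallest rise of the 12, named after its value was seen, was that of Mx2 (0.35 ± 0.088 SE, adjusted p = 0.00362). Response element cores were found in windows of 6 of the 14 listed ISGF3 targets that have one, against 3.46% of all genes with a window. They were also found for 11 of the 19 listed other interferon genes with a window. Only 5 genes of that list were tested, with 0 calls at any time. Whether a core goes with a rise was not tested.

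**Figure D4:**
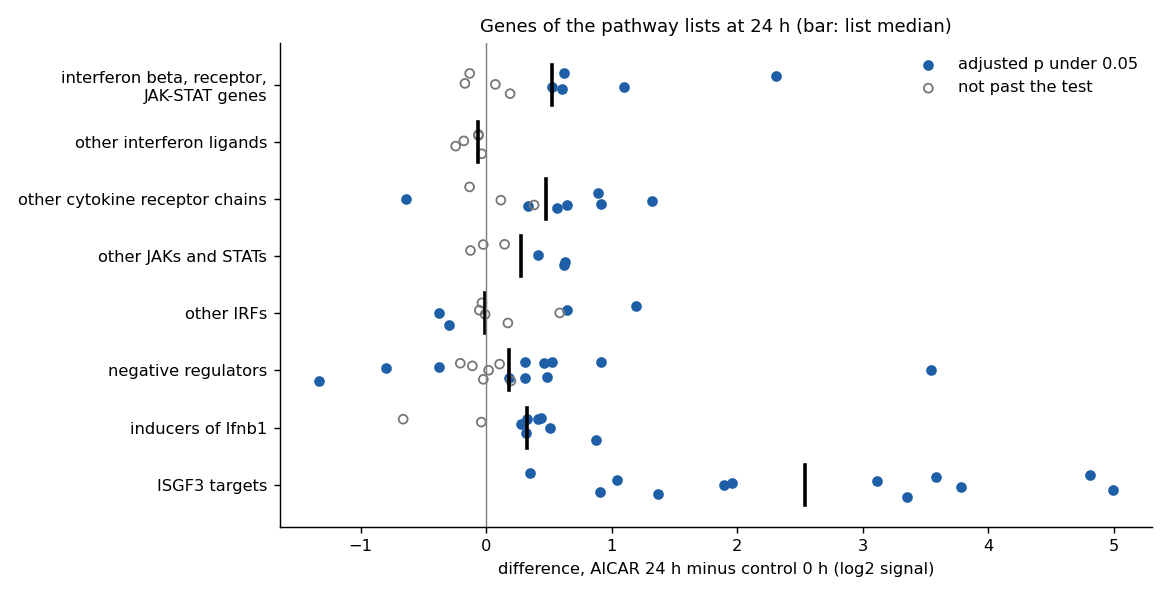
Difference between AICAR at 24 h and the 0 h controls in log2 signal (x axis) for each tested gene of the 9 members and 7 related lists (y axis). Filled points passed the test at an adjusted p below 0.05, open points did not, and the bar is the list median. The ISGF3 targets have a median of 2.53, while the other interferon ligands lie at −0.06 with no filled point.

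For each member that passed the F test, the 3 tested genes with the most similar signal over the 20 arrays were found by Pearson correlation. For Irf9 these were Igtp (r = 0.99), Ifi27 (0.98) and Rtp4 (0.98), and without the 3 arrays at 24 h the correlations were 0.78, 0.65 and 0.62. For Stat2 they were Ago4 (0.96), C1ra (0.95) and Tmem130 (0.95), and for Tyk2 Col16a1 (0.95), Cuedc2 (0.93) and Ndufv1 (0.93). For Ifnar1 they were N4bp1 (0.97), Plek2 (0.97) and Rffl (0.97), which kept correlations of 0.96, 0.96 and 0.96 without the 24 h arrays. For Irf1 they were Bhlhe40 (0.91), Hoxb2 (0.91) and Ern1 (0.90), with 0.92, 0.84 and 0.80 without them. Irf9 correlated with Stat2 at 0.92, with Tyk2 at 0.89 and with Irf1 at 0.81. These are descriptions over arrays that share their time groups, and the high values for Irf9, Stat2 and Tyk2 rest in part on the 24 h arrays.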

How the data were processed

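Total RNA was hybridised to 20 Affymetrix MG-430 PM arrays, per the labels. The authors deposited a table of 45141 probe sets, taken as log2 signal since a value of 13.5 is found in it and the natural log of what a 16-bit scanner can read ends at 11.1. The sources used here do not say how its background was corrected or how it was normalized, and no renormalization was made. The 104 control probe sets were left out of tests. Probe sets with 1 gene symbol (28898) were used, those with several (551) or none were not, and symbols were checked by gene identifier for 28689. The probe set with the highest mean stood for each gene. A gene was tested if its mean in at least 1 group passed 4.81, the 40th percentile of the table, as 12944 genes did, all 9 members among them, and 4153 did not. Arrays give no read depth, and their number limits the precision.

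One limma 3.58.1 fit (R 4.3.3, lmFit and eBayes, 13 residual degrees of freedom) over the 20 arrays gave each time against 0 h, 24 h against 12 h and an F test, two-sided, with Benjamini-Hochberg adjustment over all tested genes and a threshold of 0.05. Differences are first group minus second, and each probe set was also tested on its own. On simulated data of 12944 genes, 97 of 100 genes changed by 1 and 71 of 100 changed by 0.5 were recovered at 24 h against 0 h. Of 181 calls 13 were of unchanged genes. The simulation drew noise independently for each gene and array and changed only those genes. In the data 40.4% of tested genes were called at 24 h and arrays shared deviations, so these counts need not hold there.

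The members and lists were chosen with earlier results of these data known. All 9 members are named at every time, and of each list, markers included, up to 4 genes past the test with the largest t in a comparison, or else up to 2 as values, with Usp18 and Irf7 always and, for likeness, the 3 genes with the highest r. Markers below the nonspecific level, and macrophage markers above it, are named besides. Motifs were searched in 32851 RefSeq promoter windows on GRCm38.p6, a build used for these windows and for symbols alone, since the sources used here name none for the array. Alternatives were quantile normalization, centring on array medians, the filter dropped or set at the 60th percentile, all probe sets of a gene averaged, _x_ and _s_ probe sets dropped, trended and robust variance, array weights, replicate number as a block, a fit of the compared groups alone, the interquartile range as a covariate, leaving out each array, and, chosen after seeing the data, dropping the pair of arrays of highest median. Same-numbered arrays deviated together more often than others (r from −0.455 to 0.79, median 0.325, against a median of −0.166 for different numbers). The labels do not say that a number marks a shared experiment, and the main fit did not pair the arrays. Replicate number entered only as the block of an alternative. One gene of the pathway and the list named for it are not reported here.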

Additional observations from a re-analysis of the deposited data

Results flagged for a closer look

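For 4 members the difference from the controls at 24 h differed from that at 12 h by the fit's own contrast of these times. The change was 2.13 for Irf9 (adjusted p = 7.51e-11), 0.777 for Irf1 (adjusted p = 9.48e-05), 0.769 for Stat2 (adjusted p = 0.000183) and 0.43 for Tyk2 (adjusted p = 0.00429), all on the log2 scale by limma, and in each gene the 3 arrays at 24 h lay above the 3 at 12 h. For Irf1 the sign of the difference from the controls turned between these times, from −0.25 at 12 h, which did not pass the test, to 0.52 at 24 h. Ifnar1, with 0.07, did not pass this contrast (adjusted p = 0.819).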

How the results depend on the processing

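All 24 h calls of members, their 4 rises over 12 h and the rise of Ifnar1 at 12 h kept their direction and stayed past the threshold under each of 18 alternatives. Leaving out 1 array at a time gave 0 to 1 members lower at 1 h, 0 to 1 lower at 2 h and 1 to 2 higher at 12 h. Array weights, whose estimation stopped before it converged, called 2 members lower at 1 h, 3 lower at 2 h, 2 higher and 4 lower at 4 h, 1 higher at 8 h, 3 higher and 1 lower at 12 h and 9 by the F test, while it called 57.8% of all tested genes at 4 h and 82.2% by the F test. The interquartile range covariate called 3 lower at 2 h, 1 higher at 8 h and 2 higher at 12 h, and Ifnb1 higher at 24 h than at 12 h. Quantile normalization called 1 higher at 8 h and 2 at 12 h, a filter at the 60th percentile 2 higher at 12 h, and a fit without the pair of arrays of highest median 2 lower at 2 h. With the replicate block 2 were called higher at 12 h, since Stat2 passed there, and Ifnar2 passed at 24 h (adjusted p = 0.0251), and it changed no other call of a member. Same-numbered arrays had a median correlation of 0.325 (39 of 57 pairs over 0.1), and 12 of 20 arrays correlated best with their own number. For arrays of different number the median was −0.166 (36 of 114 pairs over 0.1). The block raised the share of all tested genes called at 24 h from 40.4% to 46%. Signs that changed between values that passed no test were not counted. Of the related genes, 3 that had passed changed sign with all probe sets averaged, Socs6 at 8 h (−0.0082), Irf2bp2 at 24 h (0.41) and Ptpn2 at 24 h (−0.090). Quantile normalization turned the 1 higher and 61 lower calls over all genes at 1 h into 24 and 85. Above the 95th percentile of nonspecific controls lay 7 of 9 members in at least 1 group mean, and 6 above the 99th (7.09). Precision is limited by 2 to 3 arrays a group, and signal of Ifnb1 and Socs1 by the nonspecific level.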
